A study of Homo sapiens with 6 samples.

Results

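NF-kB is a family of dimeric transcription factors built from the subunits NFKB1, NFKB2, REL, RELA and RELB. In resting cells the dimers are held in the cytoplasm by IkB proteins such as NFKBIA. Signals from cytokine and Toll-like receptors lead to the breakdown of these inhibitors, and the freed dimers switch on cytokines, chemokines, adhesion and survival genes, together with their own inhibitors NFKBIA and TNFAIP3. In myeloid cells the pathway is known for driving the inflammatory output of monocytes and macrophages. A list of 32 genes was followed here: 5 subunits, 6 inhibitors and feedback genes, 13 secreted targets and 8 targets that stay in or on the cell. They were chosen by name and role, with earlier results of these data known, and 30 of them were measured, among 19775 genes in all. CCL3, a macrophage chemokine, shared its probe set with other genes, BIRC3, a survival and ubiquitin ligase gene, matched no probe set in the annotation used here, and neither was analysed here.

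MV4;11, an established human cell line of acute myeloid leukaemia with a rearranged MLL gene (MLL-AF4), was profiled on 6 Affymetrix expression arrays of 1 colour (Human U133 Plus). The controls (3 arrays) received the solvent DMSO for 3 h, and the treated cells (3 arrays) received 25 nM CA, cortistatin A in the series title, for 3 h. Cortistatin A blocks the Mediator kinases CDK8 and CDK19, enzymes of the complex through which transcription factors reach RNA polymerase II. All arrays come from the same line, in triplicate wells that are not said to be separate cultures, so each p-value reflects only how far these samples spread, which may be technical. Correlations across genes were 0.9975 to 0.9979 within the groups and 0.9969 to 0.9974 between them, so no array stood apart. The 8 measured myeloid markers of 11 listed, among them LYZ, PTPRC, FLT3 and MEIS1, all lay above the median of all values. Of the markers of T, NK and B cells, erythroid, stromal and epithelial cells, 9 of 16 measured lay above it as well, among them NKG7 and PECAM1 but not CD2 or CD3G, and 0 of these 16 passed the test between the groups. In RNA from whole wells, fewer cells of a kind and less RNA per cell cannot be told apart.

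Matches to a motif like the NF-kB binding site lie in the promoters of 14 of 26 listed genes, and no binding was measured. Of these promoters 5 stretches are shown, to give the reader the letters. They belong to the members with an unadjusted p under 0.05 whose match lies in this stretch, and to CXCL1 as a dim target. Each is the last 100 bases before the RefSeq start of the gene (build GRCh38.p14), 5′ to 3′ on the gene's strand. Capitals mark matches on either strand to a kB-like motif of 10 bases, GGG and TTTCC with any 2 bases between them. NFKB1, REL and NFKBIA stood lower with cortistatin A, TNFAIP3 stood higher and CXCL1 was dim in both groups.
NFKBIA (chr14:35404750-35404849, minus strand): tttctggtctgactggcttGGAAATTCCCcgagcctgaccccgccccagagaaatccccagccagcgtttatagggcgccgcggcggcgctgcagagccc
REL (chr2:60881474-60881573, plus strand): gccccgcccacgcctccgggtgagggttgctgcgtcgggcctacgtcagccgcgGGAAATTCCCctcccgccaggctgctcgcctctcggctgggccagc
NFKB1 (chr4:102501259-102501358, plus strand): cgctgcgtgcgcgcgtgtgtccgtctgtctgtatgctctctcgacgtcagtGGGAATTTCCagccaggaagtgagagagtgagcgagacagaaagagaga
TNFAIP3 (chr6:137867159-137867258, plus strand): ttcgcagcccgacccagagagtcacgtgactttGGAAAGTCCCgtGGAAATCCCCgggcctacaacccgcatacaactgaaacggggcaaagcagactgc
CXCL1 (chr4:73869293-73869392, plus strand): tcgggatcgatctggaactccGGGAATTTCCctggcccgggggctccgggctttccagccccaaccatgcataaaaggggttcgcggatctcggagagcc

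RefSeq promoter windows of 300 bases were matched for 26 of the 32 genes, 42 windows in all. The motif was found in 15 of the 42 windows (35.7%) and in 671 of 35116 windows of all genes (1.91%). Genes with a match belonged to every role: the subunits NFKB1, NFKB2 and REL, the feedback genes NFKBIA, NFKBIB, NFKBIZ, TNFAIP3 and TNIP1, the secreted targets IL6, CXCL1, CXCL2, CXCL3 and CCL20, and the survival gene BIRC3. The windows of TNF, IL1A and TRAF1, which also had an unadjusted p under 0.05, held 0 matches. This says only that these letters are not in those windows. These genes had been listed because they belong to the pathway, so the share is a description.

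None of the 30 genes passed the test between cortistatin A and DMSO. By limma, a linear model with variances moderated across genes, 0 of the 30 members had a Benjamini-Hochberg adjusted p under 0.05, beside 0.582% of all genes. An unadjusted limma p under 0.05 was found for 7 members (23.3%), beside 12.6% of all genes; 3 were higher and 4 lower with cortistatin A, beside 6.81% and 5.83% of all genes. The groups did not overlap for 8 members (26.7%), beside 19.4% of all genes; 3 were higher and 5 lower, beside 10.2% and 9.22%. Among the 21 members that were not dim the groups did not overlap for 6 (28.6%), beside 25.0% of the 12622 genes of that kind. The differences split evenly, with 15 members above 0 and 15 below it. Their median was 0.0012 on the log2 scale, beside 0.0065 for all genes, and they ran from -0.32 (IL1A) to 0.30 (TNF). Without regard to sign the median difference was 0.125, beside 0.076 for all genes. The largest difference was 1.25-fold. A change wider than 1.2-fold was found for 4 members, beside 1114 of all 19775 genes, and 0 reached 1.5-fold, beside 41. The 95% limma interval of the difference lay inside 1.5-fold either way for 29 of the 30 members, beside 19011 of all 19775 genes. The exception among the members was the chemokine CCL2. Whether members changed more than other genes was not tested. With variances that follow the signal level and are robust to outlying genes, limma called 3 members, namely TNF, NFKBIA and REL (adjusted p = 0.022, 0.0044 and 0.0217), and 762 genes in all (3.85%). With dim genes left out it called TNF (adjusted p = 0.0373) and 321 genes in all (2.54%).

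**Figure D1:**
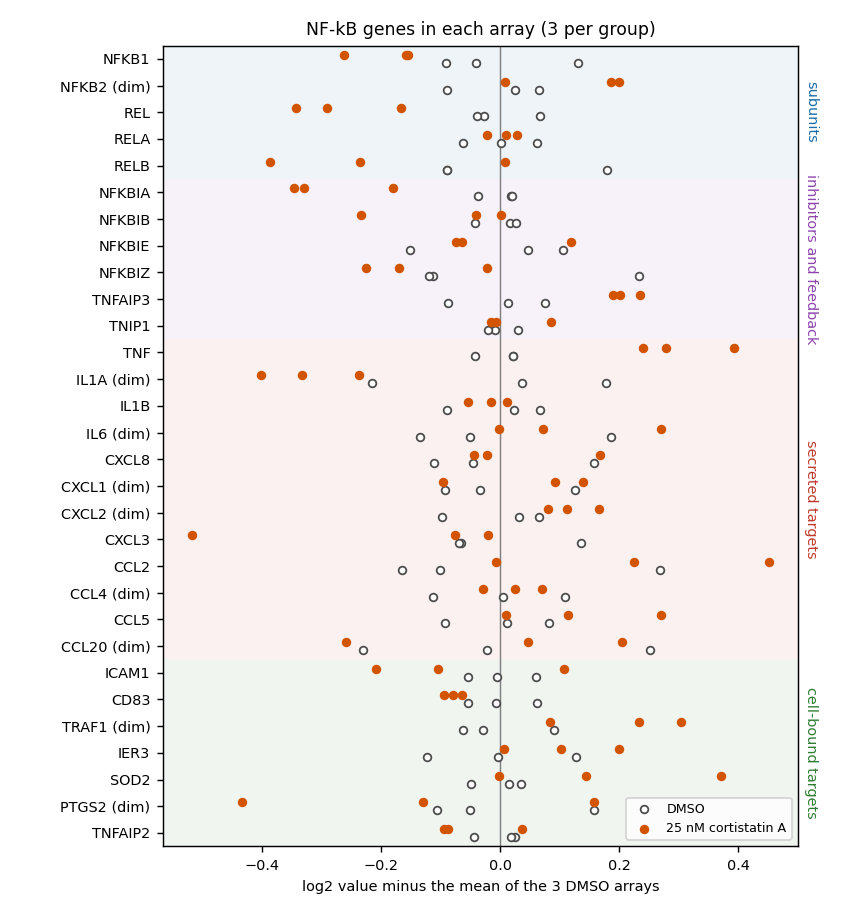
Log2 value of each of the 30 measured genes on each array, minus the mean of the 3 DMSO arrays (x axis, log2 units), with genes on the y axis grouped by role; open points are DMSO and filled points cortistatin A, and "dim" marks a gene whose mean lay at or below the median of all values. The groups separate for 8 genes, with TNF, TNFAIP3 and CXCL2 to the right and NFKB1, REL, NFKBIA, IL1A and CD83 to the left.

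Among the subunits, REL and NFKB1 stood lower on the 3 cortistatin A arrays and RELA was level. REL, the c-Rel subunit of haematopoietic cells, read 7.10, 7.09 and 7.19 in DMSO and 6.96, 6.84 and 6.78 with cortistatin A on the log2 scale. All 3 treated arrays lay below all 3 controls. The difference was -0.27 ± 0.07 (limma standard error, n = 3 arrays per group), or 1.2-fold, with an unadjusted limma p of 0.0051 and an adjusted p of 0.184. NFKB1, which is made as p105 and processed to p50, read 6.94, 6.72 and 6.77 in DMSO and 6.66, 6.55 and 6.65 with cortistatin A. The groups did not overlap, but the lowest control and the highest treated array lay close together, and DMSO replicate 1 was the highest. The difference was -0.19 ± 0.07 (limma adjusted p = 0.352), and without DMSO replicate 1 it was -0.13 (limma adjusted p = 0.591).

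RELA, the p65 subunit that carries most transactivation, read 7.02, 7.15 and 7.08 in DMSO and 7.11, 7.09 and 7.06 with cortistatin A. Its groups overlapped fully, and the 95% interval of the difference ran from -0.12 to 0.13. RELB, the partner of p52 in the noncanonical branch, read 5.05, 5.05 and 5.32 against 4.90, 4.75 and 5.15. Cortistatin A replicate 3 lay among the controls, and the difference of -0.20 ± 0.12 had an adjusted limma p of 0.549. NFKB2, the precursor of p52, was dim, at or below the median of all values, and differed by 0.13 ± 0.07 (limma adjusted p = 0.533). Of the 5 subunits, 2 were above 0 and 3 below, with a median of -0.19, beside 0.0065 for all genes. That median is the value of NFKB1, and a shift of the group was not tested.

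The feedback genes did not move as one group: NFKBIA stood lower and TNFAIP3 higher. NFKBIA encodes IkB-alpha, the inhibitor that NF-kB itself induces to end a response. It read 8.13, 8.07 and 8.13 in DMSO and 7.76, 7.78 and 7.93 with cortistatin A. The controls were close together (SD 0.03), and every treated array was below them. The difference was -0.29 ± 0.06, or 1.22-fold, with an unadjusted limma p of 0.0028 and an adjusted p of 0.146. TNFAIP3, the ubiquitin-editing enzyme A20 that shuts down signalling to the IkB kinases, read 7.04, 6.88 and 6.98 in DMSO and 7.20, 7.16 and 7.17 with cortistatin A. All 3 treated arrays lay above the controls and close to one another. Its difference was 0.21 ± 0.06, or 1.16-fold (limma adjusted p = 0.223). It was 0.17 with arrays centred on housekeeping genes.

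The other 4 feedback genes overlapped between the groups. NFKBIB, a second IkB, differed by -0.09 ± 0.07. NFKBIE, the IkB-epsilon gene, differed by -0.01 ± 0.09. NFKBIZ, a nuclear IkB that assists secondary responses, differed by -0.14 ± 0.11, with DMSO replicate 3 at 4.28 and its other 5 arrays between 3.82 and 4.02. TNIP1, which binds A20, read 7.90 to 7.95 in DMSO and 7.90 to 8.0 with cortistatin A, a difference of 0.02 ± 0.05 whose 95% interval ran from -0.10 to 0.14. The limma adjusted p of these 4 genes was 0.664 to 0.984. Over the 6 inhibitors and feedback genes, 2 stood above 0 and 4 below, with a median of -0.05.

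**Figure D2:**
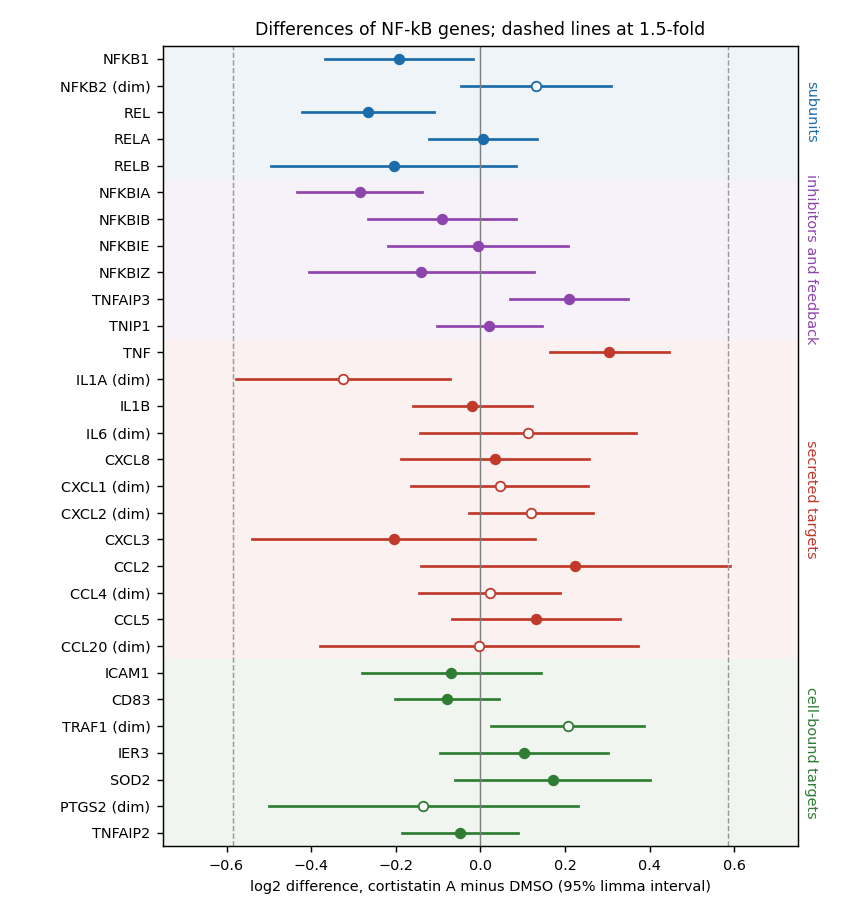
Log2 difference between cortistatin A and DMSO for each measured gene (points) with its 95% limma interval (lines), 3 arrays per group; open points are dim genes and dashed lines mark 1.5-fold. The intervals of TNF, TNFAIP3 and TRAF1 lie above 0 and those of NFKB1, REL, NFKBIA and IL1A below it, and CCL2 alone reaches past a dashed line.

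Among the secreted targets TNF had the smallest p. TNF, the cytokine that both follows from and activates NF-kB, read 5.93, 5.93 and 5.86 in DMSO and 6.14, 6.30 and 6.18 with cortistatin A. The treated arrays all lay above the controls, by more than the spread within either group. The difference was 0.30 ± 0.06, or 1.23-fold (95% interval 0.16 to 0.44), with an unadjusted limma p of 0.0015 and an adjusted p of 0.109. Leaving out each array in turn gave 0.26 to 0.34. IL1A, the interleukin-1 alpha gene, was dim and read 3.32, 3.18 and 2.93 in DMSO and 2.81, 2.91 and 2.74 with cortistatin A. The groups were separated by a narrow gap, and the difference was -0.32 ± 0.11 (limma adjusted p = 0.281). Its relative IL1B read 6.12, 6.01 and 6.17 in DMSO and 6.05, 6.09 and 6.11 with cortistatin A, so the groups overlapped, and the 95% interval ran from -0.16 to 0.12.

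By the brightest probe set, the chemokines overlapped between the groups, apart from CXCL2. CXCL8, the neutrophil attractant interleukin-8, read 5.15, 5.35 and 5.08 in DMSO and 5.17, 5.15 and 5.36 with cortistatin A. One array of each group stood above the other 4, and the difference was 0.03 ± 0.09 (limma adjusted p = 0.918). CCL5, a chemokine for T cells and monocytes, was measured between 7.46 and 7.63 in DMSO and between 7.56 and 7.82 with cortistatin A, a difference of 0.13 ± 0.08. CCL2, the monocyte chemokine, differed by 0.22 ± 0.15 and had a wide spread in both groups (SD 0.23 each). CXCL3 differed by -0.20 ± 0.14, with cortistatin A replicate 1 at 3.48 and its other 5 arrays between 3.92 and 4.14. IL6, CXCL1, CXCL2, CCL4 and CCL20 were dim, with differences from -0.0029 (CCL20) to 0.12 (CXCL2). CXCL2 read 2.31, 2.34 and 2.18 against 2.35, 2.44 and 2.39, so the groups were separated by a narrow gap at a low level, and its limma adjusted p was 0.493. Of the 12 measured secreted targets 6 were dim, and their median difference was 0.04.

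The 7 measured targets that stay with the cell differed by -0.14 to 0.21. The groups did not overlap for 1 of them (14.3%), beside 19.4% of all genes. TRAF1, an adaptor of TNF receptors, was dim and read 2.55, 2.67 and 2.51 in DMSO and 2.88, 2.66 and 2.81 with cortistatin A. The groups touched at one array each, and the difference was 0.21 ± 0.08 (limma adjusted p = 0.331). CD83, a surface marker of activated dendritic cells and B cells, read 5.96, 5.91 and 6.03 in DMSO and 5.89, 5.87 and 5.90 with cortistatin A. The groups did not overlap, yet the difference was only -0.08 ± 0.05 (limma adjusted p = 0.586). SOD2, the mitochondrial superoxide dismutase, differed by 0.17 ± 0.10, with cortistatin A replicate 3 at 7.21 and its other 5 arrays between 6.79 and 6.98. That value rests on its only probe set naming 1 gene, since 4 others also name a second gene. ICAM1, the leukocyte adhesion ligand, differed by -0.07 ± 0.09, and IER3, an immediate early survival gene, by 0.10 ± 0.08. TNFAIP2 was at -0.05 ± 0.06, and PTGS2, the inducible cyclooxygenase, was dim at -0.14 ± 0.15. The limma adjusted p of these 5 genes was 0.534 to 0.808.

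Several genes are covered by more than 1 probe set, which shows how far a value depends on the probes. Of the 30 members, 17 had more than 1 probe set naming that gene only, 55 probe sets in all, and 10 had more than 1 above the median of all values. In 6 of these 10 genes all bright probe sets had the same sign and in 4 they did not. REL had 4 bright probe sets, at -0.27, -0.14, -0.30 and -0.26. All 4 were below 0, and the groups did not overlap in 2 of them. TNFAIP3 had 2, at 0.21 and 0.17. For RELA the brightest was at 0.01 and the other at -0.17, where the treated arrays all lay below the controls. CXCL8 stood at 0.03 and 0.16, and its second probe set had every treated array above the controls. IL1B stood at -0.02 and 0.12, again with the groups apart in the second. TNIP1 stood at 0.02 and 0.12, and NFKBIB at -0.09 and -0.02.

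For CCL5 the 3 bright probe sets gave 0.13, 0.07 and -0.01, and for ICAM1 they gave -0.07, -0.03 and 0.22, with the groups apart in the last. Both of TNFAIP2 were below 0 (-0.05 and -0.20), and the treated arrays lay below the controls in the second. The groups did not overlap in 13 of the 35 bright probe sets of the members (37.1%), beside 22.7% of all bright probe sets. The second probe set of NFKBIA was dim and stood at 0.02, so the NFKBIA difference rests on 1 bright probe set. With every probe set tested as such, limma called 0 of the 55 at an adjusted p under 0.05, beside 0.0513% of all probe sets, and 13 had an unadjusted p under 0.05 (23.6%), beside 10.3% of all probe sets.

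**Figure D3:**
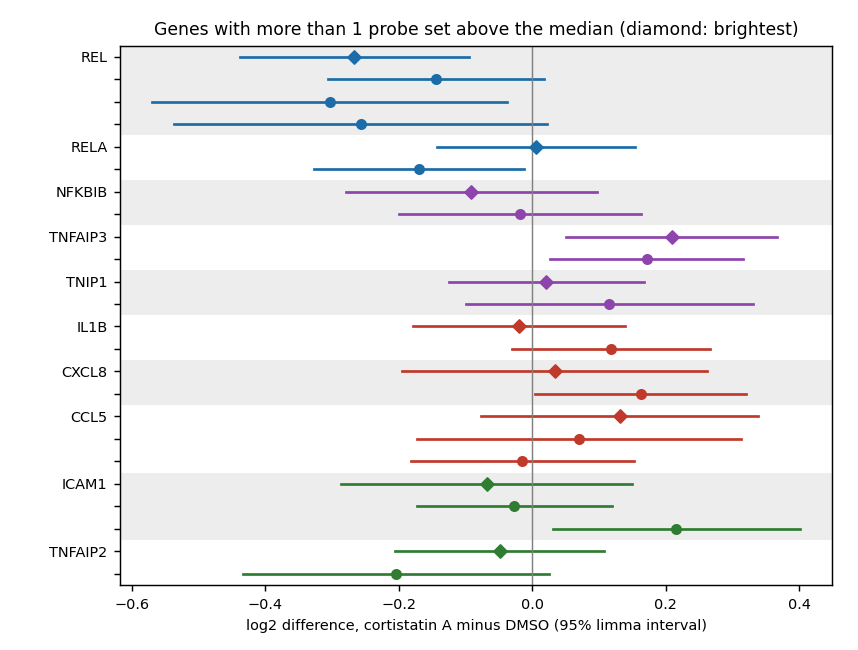
Log2 difference between cortistatin A and DMSO with its 95% limma interval (x axis) for each probe set above the median, in the 10 genes that have more than 1; diamonds mark the brightest. The 4 probe sets of REL all lie left of 0, both of TNFAIP3 lie right of it, and those of RELA, IL1B, CCL5 and ICAM1 fall on both sides.

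Arrays of this kind carry probe sets at both ends of control transcripts, and the 3' minus 5' log2 signal rises as the labelled RNA gets shorter. Over the 3 human mRNA controls (beta-actin, GAPDH and ISGF3A) it was 2.77 ± 0.01 in DMSO and 2.86 ± 0.06 with cortistatin A (SD, n = 3), with every treated array above the controls (exact permutation p = 0.1, two-sided, which is the smallest value for groups of 3). Over all 22 control transcripts, ribosomal RNA and spike-ins included, they overlapped. With the human mRNA index as a covariate TNF stood at 0.37, NFKBIA at -0.42, REL at -0.20, TNFAIP3 at 0.18 and NFKB1 at -0.30. These kept their sign, while other members turned, among them NFKBIZ, CXCL8 and SOD2. The unadjusted limma p was then 0.123 for REL and 0.128 for TNFAIP3, and under 0.05 for TNF, NFKBIA and NFKB1. Limma called 0 genes of all. Since the index itself separates the groups, its part and that of the treatment cannot be fully told apart.

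Other genes of the pathway came from 4 lists with 106 genes, 95 of them measured, and 2 passed the test, both lower with cortistatin A (0.137% of all genes were called lower). The lists were drawn up with earlier results of these data known, that of PELI1 among them, so the count is a description. PELI1 and RIPK2 act upstream of NF-kB. PELI1, the Pellino ubiquitin ligase that relays signals from interleukin-1 and Toll-like receptors, read 4.39, 4.43 and 4.47 in DMSO and 3.83, 3.67 and 3.89 with cortistatin A. All 3 treated arrays lay below the controls, close to the median of all values. On the log2 scale PELI1 fell by 0.63 ± 0.07, which is 1.54-fold (limma adjusted p = 0.0248). RIPK2, the kinase that carries NOD receptor signals to NF-kB, read 7.64, 7.64 and 7.66 in DMSO and 7.33, 7.30 and 7.27 with cortistatin A. The spread within each group was small beside the gap. RIPK2 fell by 0.35 ± 0.05, or 1.27-fold (limma adjusted p = 0.0377). Neither call held when any 1 of the 6 arrays was left out, with limma adjusted p of 0.0875 to 0.13 for PELI1 and 0.147 to 0.17 for RIPK2. With the human mRNA index as a covariate the adjusted p was 0.37 and 0.412. The second bright probe set of RIPK2 was at -0.17 and its groups overlapped, and both other probe sets of PELI1 were dim.

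**Figure D4:**
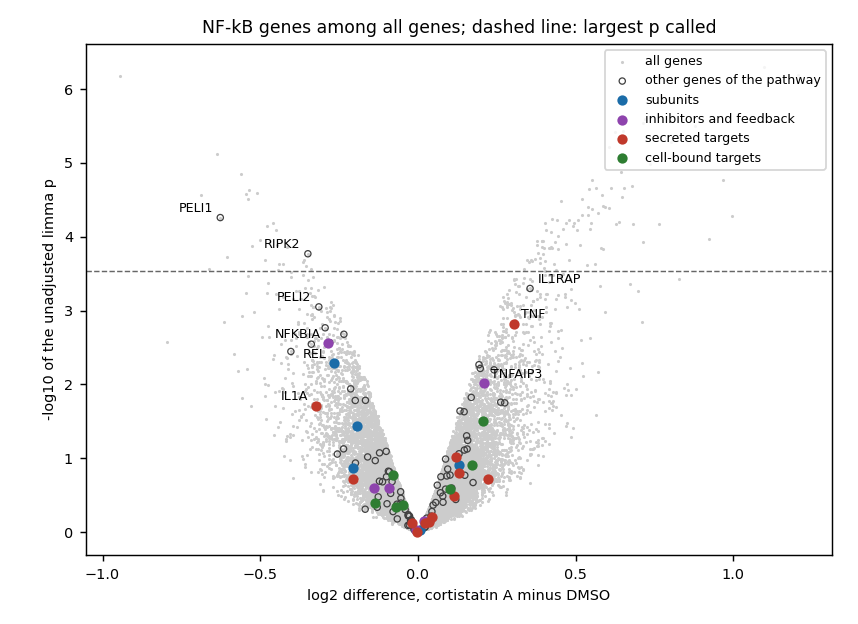
Log2 difference between cortistatin A and DMSO (x axis) against -log10 of the unadjusted limma p (y axis) for all 19775 genes in grey, other pathway genes as open circles and the 30 members in colour by role; the dashed line is the largest p that was called. All coloured points lie below the line, and of the open circles only PELI1 and RIPK2 lie above it.

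In the list of upstream receptors and adaptors 20 of 25 genes were measured, 1 passed (RIPK2), and the median difference was -0.06, with 6 genes above 0 and 14 below. Of its genes, 2 higher and 4 lower had an unadjusted limma p under 0.05, beside 6.81% higher and 5.83% lower over all genes. IL1RAP, the shared chain of the interleukin-1 receptor, read 8.33, 8.36 and 8.46 in DMSO and 8.74, 8.69 and 8.78 with cortistatin A. The groups were well apart, at 0.36 ± 0.06 or 1.28-fold, with a limma adjusted p of 0.0679. All 20 genes of the list of kinases and ubiquitin ligases were measured, and 1 passed (PELI1). Their median was -0.02, 6 stood above 0 and 14 below, and 1 higher and 4 lower had an unadjusted limma p under 0.05 (6.81% and 5.83% over all genes). PELI2, a relative of PELI1, read 5.59, 5.53 and 5.59 against 5.24, 5.20 and 5.33. Its groups did not overlap, and it differed by -0.31 ± 0.06 (limma adjusted p = 0.0841). The IkB kinase genes CHUK, IKBKB and IKBKG stood at -0.0074, -0.08 and 0.10.

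The list of other inhibitors and nuclear cofactors had 16 of 19 genes measured and 0 past the threshold, with 1 higher and 2 lower at an unadjusted limma p under 0.05 (6.81% and 5.83% over all genes) and a median of -0.0052. Its smallest p belonged to the acetyltransferase and coactivator EP300 (-0.23 ± 0.05, limma adjusted p = 0.131) and to NKRF, a repressor of NF-kB targets (0.19 ± 0.05, limma adjusted p = 0.186). Of 42 further target genes 39 were measured, 0 passed, and 6 were higher and 1 lower at an unadjusted limma p under 0.05 (6.81% and 5.83% over all genes), with a median of 0.0035. TNFSF10, the death ligand TRAIL, stood at -0.34 ± 0.07 (limma adjusted p = 0.149), and PLEK, a protein kinase C substrate of blood cells, at 0.20 ± 0.05 (limma adjusted p = 0.191). Of these 39 targets 21 stood above 0 and 18 below, and of the 12 secreted members 8 above and 4 below. Of the 7 members that stay with the cell 3 stood above 0 and 4 below. Over all 19775 genes 10364 stood above 0 and 9411 below. The difference of the targets from the upstream lists was not tested.

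**Figure D5:**
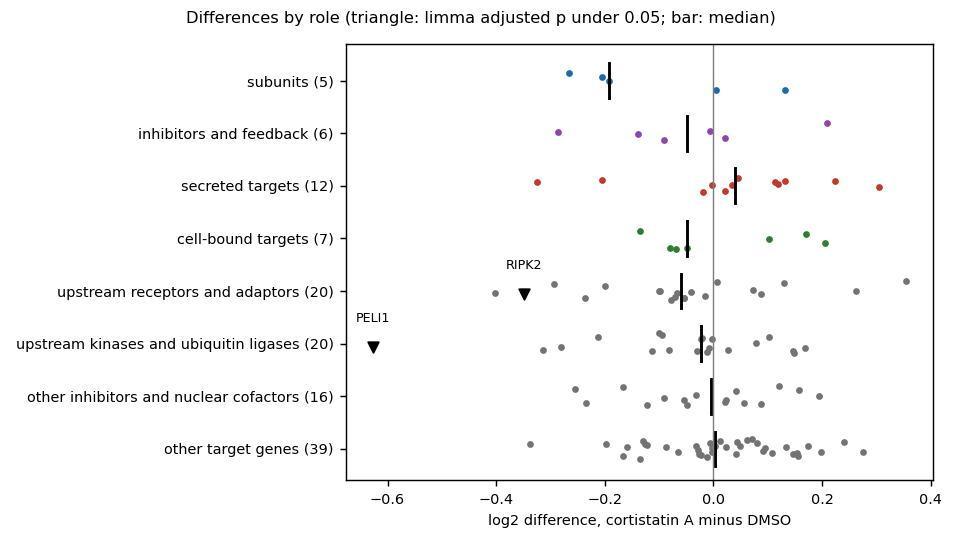
Log2 difference between cortistatin A and DMSO (x axis) for each measured gene, by role, with the number measured in brackets; bars are medians and triangles mark genes with a limma adjusted p under 0.05. Only PELI1 (-0.63) and RIPK2 (-0.35) carry a triangle, and the medians of all 8 groups lie between -0.19 and 0.04.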

How the data were processed

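The labels place 3 arrays in DMSO and 3 in cortistatin A. The authors deposited 1 log2 value per probe set and array, made with RMA and the affy package per the submitters' processing notes, which give no version; the log2 scale was inferred from the values, 0.81 to 13.84. The lowest values are lower than RMA in its usual form tends to give, so the background step is uncertain, and with it the size of changes in dim probe sets. RMA makes the arrays' distributions alike, which would remove a shift of all transcripts. RNA was isolated with a column kit or TRIzol per the labels' protocols, without saying which array had which. The number of arrays limits the precision.

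Of 54675 probe sets, 41091 named 1 gene in the platform annotation, with symbols updated through RefSeq for 41037. Each of 19775 genes was read from its brightest probe set by the mean of all 6 arrays; "dim" marks a mean no higher than the overall median, 3.75. Groups were compared with limma 3.58.1 in R 4.3.3 (lmFit, eBayes, two-sided, Benjamini-Hochberg over all genes, adjusted p under 0.05, 4 residual and 2.68 prior degrees of freedom), a step tested on simulated data. The pass mark of that test was set on changes larger than any member's, so it does not speak for changes as small as these. Errors after ± come from limma (standard errors) where SD is not stated. All members were named, with their further bright probe sets, and of each pathway list the genes called and the 2 with the smallest p; the IkB kinases CHUK, IKBKB and IKBKG were added after their values were seen. Members and lists were chosen with earlier results of these data known. Same-numbered arrays did not deviate together (r = -0.055 to 0.016 across genes), so the number was no block. Alternatives concerned the replicate block, probe set choice, normalization, housekeeping centring (23 genes), variance model, 3' to 5' index, thresholds and each array left out. The index over all control transcripts was planned, and that over the human mRNA controls was chosen after the values were seen.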

Additional observations from a re-analysis of the deposited data

How the results depend on the processing

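The count of 0 of 30 members at a limma adjusted p under 0.05 became 1 (TNF, higher) with dim genes left out and 3 with trend and robust variances. It was 0 under every other alternative and without each array (0 to 0). The members' median stayed between -0.039 and 0.016. The lowest value came with housekeeping centring, where the median of all genes was -0.033. With the human mRNA index the members' median was -0.035, beside -0.0058 for all genes. The 115 genes called in all became 0 with the replicate block, 321 when dim genes were dropped, 76 on averaging all probe sets, 54 without the _x_at and _s_at types, 61 with housekeeping centring, 762 with trend and robust variances, 25 without moderation, 0 with either 3' to 5' index, 260 at an adjusted p under 0.1, and 0 to 4 without each array. The 2 pathway genes became 0, 6, 0, 1, 1, 13, 1, 0 and 4 in that order of settings, and 0 without each array (0 to 0). With the replicate block limma called 0 of the 30 members, and 8 of them had an unadjusted p under 0.05, beside 2243 of all 19775 genes. PELI1 and RIPK2 lost their calls in that setting (limma adjusted p = 0.181 and 0.244).

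The replicate block, the variance models, the changed thresholds and leaving out dim genes keep each gene's main difference. No sign could turn under them. Of 522 member values under alternatives, those settings included, 43 turned sign, in 16 members. On averaging probe sets these were NFKB2 (-0.019), RELA (-0.082), NFKBIB (0.017), IL1B (0.050) and ICAM1 (0.040). Without the _x_at and _s_at types they were NFKB2 (-0.19), NFKBIA (0.019) and NFKBIB (0.16), each then read from another probe set that was dim. A further quantile normalization turned NFKBIE (0.010). Housekeeping centring turned RELA (-0.035), TNIP1 (-0.019), CXCL8 (-0.0061) and CCL4 (-0.018). The index of all control transcripts turned RELA (-0.039), IL1B (0.012), CXCL1 (-0.016), CCL4 (-0.047) and CCL20 (0.19). The human mRNA index turned NFKBIZ (0.034), TNIP1 (-0.064), CXCL8 (-0.12), CCL5 (-0.015), ICAM1 (0.049), SOD2 (-0.10) and PTGS2 (0.35). Leaving out each array gave both signs for RELA (-0.026 to 0.036), NFKBIE (-0.082 to 0.046), TNIP1 (-0.012 to 0.039), IL1B (-0.064 to 0.014), CXCL8 (-0.033 to 0.113), CXCL1 (-0.0021 to 0.116), CCL4 (-0.035 to 0.076), CCL20 (-0.118 to 0.126), ICAM1 (-0.157 to 0.0017) and PTGS2 (-0.282 to 0.014). None of these values was called, and the cause of the turns was not tested apart from the change of probe set. How much background signal enters the values of the 9 dim members was not tested.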
